A study of Mus musculus with 4 samples.

Results

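The replication-dependent histone genes lie in clusters, and 34 of the 28095 genes named on the array belonged to them. They were taken as every gene whose name on the array starts with Hist1h, Hist2h, Hist3h or Hist4h, and they were covered by 42 of the 41174 probes. The value of a gene was that of its brightest probe, and the genes were grouped as 6 H1, 11 H2A, 9 H2B, 3 H3 and 5 H4 genes. RNA came from LSK cells, the bone marrow fraction without lineage markers and with Sca-1 and c-Kit, in which hematopoietic stem cells and early progenitors are found. Meis1-KO cells came from Mx1-Cre Meis1fl/fl mice given 4 injections of poly(I:C) at 1.5 µg/g, which induces Cre through the interferon response and removes the floxed exon 8 of Meis1. Cells outside the blood lineages can also carry out this Cre deletion. Meis1-WT cells came from Meis1fl/fl mice, which carry the floxed alleles without Cre, and the sources differ on whether these mice were sham-treated or received poly(I:C). The mice were C57BL/6J animals treated at 4 to 8 weeks of age, and the cells were collected 1 week after poly(I:C). Each genotype was represented by 2 pools of 6 mice, with 1 array per pool. The first pool of each genotype was on slide 1 and the second on slide 2. Amplification started from 10 ng of RNA per pool, and the Cy3-labeled product was hybridized to probes of 60 bases.

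Histones are the proteins around which DNA is wrapped. H2A, H2B, H3 and H4 form the core of the nucleosome, and H1 binds the linker DNA between nucleosomes. The clustered genes are transcribed mainly in S phase, when new DNA has to be packaged, and most of their mRNAs end in a conserved stem-loop instead of a poly(A) tail. The stem-loop is bound by SLBP, which is needed for processing and translation of these mRNAs. Some clustered genes also give polyadenylated transcripts. Within a type the genes encode nearly identical proteins, so their coding sequences are close to each other.

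A probe value is given here as log2 of the processed signal minus the 75th percentile of its array. Testing was limited to the 22007 probes that both arrays of 1 genotype, or all 4 arrays, recorded well above background. Of the 34 histone cluster genes 27 were tested (33 probes), and each of these 27 was well above background on all 4 arrays. The other 7 were not tested. *Hist1h2ae*, *Hist1h2al*, *Hist1h2be* and *Hist1h2bp* were above background on no array. *Hist1h2ac* was above it on the second Meis1-WT array alone, *Hist1h3a* on the second Meis1-KO and the first Meis1-WT array, and *Hist1h1t*, a testis linker histone, on the first Meis1-KO and the second Meis1-WT array.

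Several probes could not be read as separate genes. Of the 42 probes 13 list more than 1 RefSeq gene, among them 11 of the 27 probes that stand for the tested genes, and 12 pairs of probes share a run of at least 20 bases. Counting probes linked by such runs once, the 27 genes came down to 22 families. These families are not all independent, because some list the same RefSeq gene. The probes of *Hist2h2ac* and *Hist2h2aa1*, for example, both list H2ac18 and H2ac19 without sharing such a run. The sequences that follow, from the array's own design, show the closest cases, with the shared run in capitals for the first 4 probes and the differing bases in capitals for the last pair. Positions are those of the array's annotation on mm9.
*Hist1h2aa*, chr13:24026659-24026718, plus strand: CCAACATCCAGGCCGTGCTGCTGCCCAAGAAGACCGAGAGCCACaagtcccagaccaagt
*Hist1h2af*, chr13:23626108-23626167, plus strand: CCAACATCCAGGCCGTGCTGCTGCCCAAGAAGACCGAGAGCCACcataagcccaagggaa
*Hist1h4d*, chr13:23673665-23673724, plus strand: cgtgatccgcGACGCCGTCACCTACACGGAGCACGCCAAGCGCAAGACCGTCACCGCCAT
*Hist1h4f*, chr13:23643249-23643308, minus strand: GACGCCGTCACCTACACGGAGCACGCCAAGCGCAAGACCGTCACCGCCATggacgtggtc
*Hist1h2bk*, chr13:22127928-22127987, plus strand: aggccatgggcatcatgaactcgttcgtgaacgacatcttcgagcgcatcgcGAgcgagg
*Hist1h2bm*, chr13:21814139-21814198, plus strand: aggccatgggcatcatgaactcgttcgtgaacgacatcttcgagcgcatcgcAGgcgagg
The probe of *Hist1h2aa*, which encodes a testis H2A, shares 44 bases with that of *Hist1h2af*. After each probe was set to its own mean, their values differed by at most 0.061 on any array. The probes of *Hist1h4d* and *Hist1h4f* share 50 bases and differed by at most 0.094 in the same way. The second probe of *Hist1h2bk* and the probe of *Hist1h2bm* differ at 2 of 60 bases, G53A and A54G counted from the 5′ end of the *Hist1h2bk* probe, and their values differed by at most 0.044. The values of these pairs are therefore not independent of each other.

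Some probes lie at the stem-loop near the end of the message, or mostly past it. The core of the histone stem-loop, CTTTTCAG, was found on the printed strand of 2 of the 42 histone cluster probes and of 0.202% of all probes (83 probes). Segments of 30 bases that hold it are shown with the core in capitals, because neither probe reached the test.
*Hist1h2ae*: CTTTTCAGagccattcacttaattcagtaa
*Hist1h3a*: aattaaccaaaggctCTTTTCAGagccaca
The first lay below background on every array and the second on 2 of 4. In the first the core stands at bases 1 to 8 of the 60, so most of that probe lies past it. It may therefore miss mRNA that ends at the stem-loop.

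RefSeq promoters of 300 bases, from 250 before to 50 after the start on GRCm38.p6, were found for 27 of the 34 genes. Of 3 motifs searched on both strands, TATAAA occurred in 18 of the 27 promoters (66.7%) against 14.2% of all 27025 promoters. CCAAT occurred in 25 of 27 (92.6%) against 37.9% of all. The octamer ATTTGCAT, bound by Oct-1 and known from H2B promoters, occurred in 9 of 27 (33.3%) against 1.75% of all. These 9 were 6 of 10 H2A and 3 of 5 H2B promoters, with none among the 6 H1, 2 H3 and 4 H4 promoters. The promoters of *Hist1h2aa* and *Hist1h2ba* face away from each other and overlap by 220 bases, so their motifs can be counted under both H2A and H2B. An H2B and an H4 promoter are shown, with matches to the 3 motifs in capitals.
*Hist1h2bm*, chr13:21721794-21722093, plus strand: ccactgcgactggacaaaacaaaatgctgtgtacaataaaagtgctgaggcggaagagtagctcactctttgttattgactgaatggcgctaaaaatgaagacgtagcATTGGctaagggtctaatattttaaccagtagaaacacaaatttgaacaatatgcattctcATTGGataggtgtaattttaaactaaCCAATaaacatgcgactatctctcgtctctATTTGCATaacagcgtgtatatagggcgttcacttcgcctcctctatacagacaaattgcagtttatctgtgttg
*Hist1h4d*, chr13:23581318-23581617, plus strand: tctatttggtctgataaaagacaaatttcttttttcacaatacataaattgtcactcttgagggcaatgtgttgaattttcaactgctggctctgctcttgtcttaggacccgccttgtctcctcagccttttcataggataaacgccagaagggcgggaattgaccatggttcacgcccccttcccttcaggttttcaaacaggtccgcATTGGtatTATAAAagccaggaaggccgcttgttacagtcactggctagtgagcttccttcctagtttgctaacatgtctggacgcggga
The H2B promoter holds the octamer and CCAAT on both strands without TATAAA, and the H4 promoter holds TATAAA next to a CCAAT on the other strand. A match describes these letters and does not show that a factor was bound.

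The labels and the cells were checked first. The brighter Meis1 probe stood at 0.25 and 0.22 on the Meis1-KO arrays and at 1.02 and 1.45 on the Meis1-WT arrays. It was thus lower in Meis1-KO cells on both slides, by -0.77 and -1.23. Whether it lies in the deleted exon was not determined here, so it checks the labels only in part. The 5 LSK markers examined (Kit, Ly6a, Cd34, Slamf1 and Gata2) were well above background on the 4 arrays. The second Meis1-KO array was the dimmest, with a 75th percentile of 90.3 against 147 to 154 signal units on the others, and with 49.2% of its spots well above background against 54.7% to 57.4%. Because the samples were bulk RNA, fewer cells of a type and less RNA per cell cannot be told apart.

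Histone cluster genes stood higher in Meis1-KO than in Meis1-WT LSK cells for 26 of the 27 genes tested, of which *Hist1h2bc* and *Hist2h2be* turned lower without scaling between arrays. None passed the test, and the difference came almost wholly from slide 2. The median difference, Meis1-KO minus Meis1-WT, was 0.69 on the log2 scale against 0.08 over all tested probes, and 56.3% of all tested probes were higher. Without scaling between arrays these medians were 0.31 and -0.30. On slide 1 the median over the 27 genes was 0.060, with a range of -0.34 to 0.30. On slide 2 it was 1.29, with a range of -0.50 to 1.75. Over all tested probes the slide medians were 0.025 and 0.13. More than 2-fold was reached by 23 of 27 genes on slide 2, where 13.8% of all tested probes reached it, and by none on slide 1, where 3.05% did. The slide 2 count depended on the scale, with 24 genes after median scaling (21.8% of all tested probes), 13 after normexp (3.14%), 6 with quantile scaling (10.6%) and 0 without scaling (2.31%). The second Meis1-KO array held the highest of the 4 values for 26 of the 27 genes, as it did for 45.0% of all tested probes. In each type but H1, every tested gene had its highest value there, except that in the unscaled signals *Hist1h2bc* and *Hist2h2be*, like *Hist1h1c*, were lowest on that array. In the unscaled signals it was the highest for 24 of the 27 genes. Without that array the median over the 27 genes was -0.16, and the medians of the H1, H2A and H4 genes were -0.16, -0.45 and -0.16, while those of the H2B and H3 genes were 0.16 and 0.049.

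With the criteria of the study (unadjusted p under 0.01, change over 2-fold) limma called 0 of the 27 genes higher and 0 lower, while it called 0.136% of all tested probes higher and 0.6% lower. With the slide as a block it again called 0 in either direction, with 0.591% and 1.4% of all tested probes called. At an unadjusted p under 0.05 limma passed 0 of the 27 genes without the block and 0 with it, against 2.81% and 6.08% of all tested probes. The smallest unadjusted p of limma was 0.229 (Benjamini-Hochberg adjusted p = 0.983), and with the block it was 0.112 (adjusted p = 0.945). Without the first Meis1-KO array, when the second is the lone one and limma takes its spread from the Meis1-WT pair, 9 of the 27 genes were called higher, against 2.32% of all tested probes (7.75% lower), and the median was 1.59. Meis1-KO is then a single array, so the 9 calls rest on the second pool alone. For 25 of the 27 genes the difference between genotypes was smaller than the SD of the 2 Meis1-KO arrays. This was not counted over all tested probes. The smallest two-sided p that an exact permutation test allows with 2 arrays in each group is 0.333. Both Meis1-KO arrays stood above both Meis1-WT arrays for 6 genes (5 H2B and 1 H3), or 6 of 27 where the same held for 16.0% of all tested probes.

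**Figure D1:**
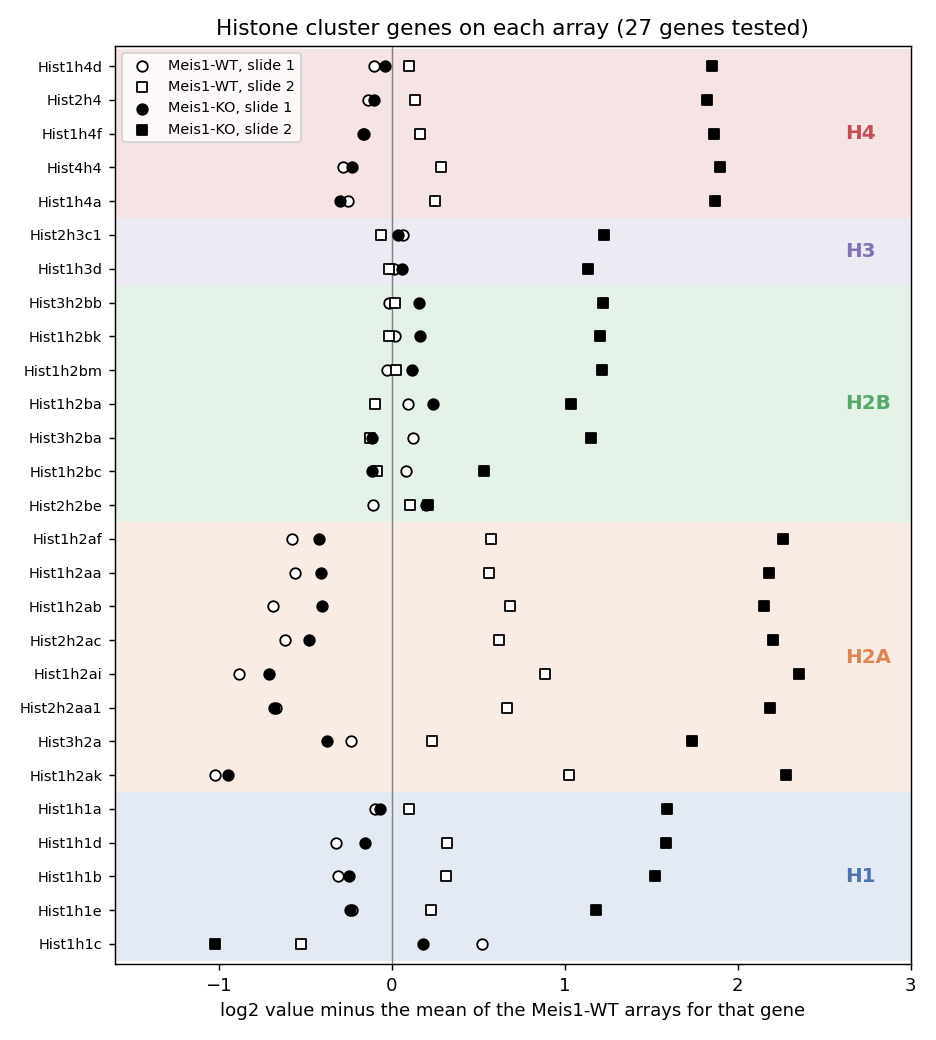
Log2 value of each tested histone cluster gene on each of the 4 arrays, minus the mean of its Meis1-WT arrays, with circles for slide 1, squares for slide 2, open symbols for Meis1-WT and filled symbols for Meis1-KO; bands mark the histone types. The filled squares, the second Meis1-KO array, lie farthest to the right for 26 of 27 genes, and the open squares lie to the right of the open circles for the H2A and H4 genes.

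The slides were then taken one at a time. Meis1-KO was higher on both slides for 19 of 27 genes, against 30.3% of all tested probes, and lower on both for 1 gene, against 21.0%. The count of 19 depended on the scale, with 12 when each array was centered on its median (29.4% of all tested probes), 22 with quantile scaling (29.6%) and 8 after normexp background correction (41.3%). On slide 1 the 19 differences were small, since no gene exceeded 0.30. The median slide 2 difference was 1.21 for H1, 1.51 for H2A, 1.19 for H2B, 1.22 for H3 and 1.69 for H4 genes. The corresponding slide 1 medians were 0.03, 0.14, 0.15, 0.01 and 0.03. With quantile scaling the slide 2 medians were 0.88, 0.95, 0.53, 0.51 and 0.89 in the same order. With the sign counted, 25 of the 27 differences were higher on slide 2 than on slide 1, all but those of *Hist1h1c* and *Hist2h2be*. The same count was not made over all tested probes.

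**Figure D2:**
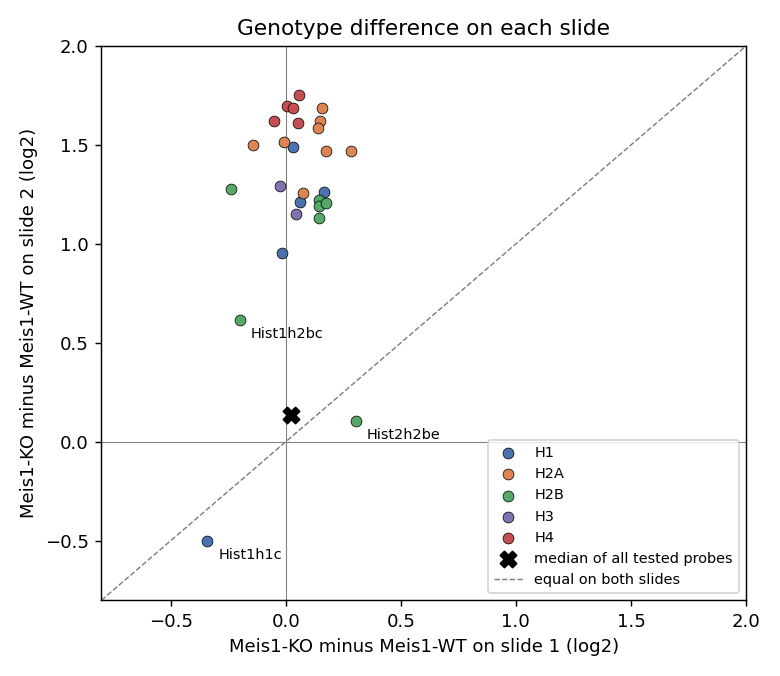
Each point is 1 tested histone cluster gene, with the Meis1-KO minus Meis1-WT difference (log2) on slide 1 on the x axis and on slide 2 on the y axis, colored by histone type; the cross is the median of all tested probes. All but 3 genes lie near 0 on slide 1 and at or above 0.95 on slide 2.

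The linker histone genes held the only negative difference. *Hist1h1a* (H1.1) was at 1.12 and 2.78 on the Meis1-KO arrays and at 1.09 and 1.29 on the Meis1-WT arrays, in the order of slide 1 and slide 2, a log2 difference of 0.76 with a limma SE of 0.63. *Hist1h1d* (H1.3) was at -1.73 and 0.01 in Meis1-KO and at -1.89 and -1.25 in Meis1-WT cells, a difference of 0.71 (SE 0.67). In these probes of both genes the second Meis1-KO array stood apart, and the other 3 lay closer together. The second, dimmer probe of *Hist1h1d* was at -3.32 and -2.71 in Meis1-KO and at -3.16 and -4.66 in Meis1-WT cells. There the second Meis1-WT array stood apart, the only one on which that probe was not well above background. *Hist1h1e* (H1.4) was at 1.17 and 2.59 in Meis1-KO and at 1.18 and 1.64 in Meis1-WT cells, a difference of 0.47 (SE 0.60). *Hist1h1b* (H1.5) differed by 0.64. *Hist1h1c* (H1.2) was at 3.25 and 2.04 in Meis1-KO and at 3.59 and 2.55 in Meis1-WT cells, a difference of -0.42 (SE 0.62). It was the 1 tested gene that was lower in Meis1-KO cells on both slides, by -0.34 and -0.50, and its values were lower on slide 2 than on slide 1 in both genotypes. In all 5 genes the difference was smaller than the SD of the Meis1-KO arrays.

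By their brightest probes, the tested H2A genes were higher on slide 2 in both genotypes. *Hist1h2af* had the largest difference of the 27 histone cluster genes on this scale, though not with quantile scaling, at 5.02 and 7.70 in Meis1-KO and 4.86 and 6.02 in Meis1-WT cells, 0.92 on the log2 scale (SE 0.93). *Hist1h2aa*, the testis gene whose probe shares its first 44 bases, was at 4.98 and 7.58 against 4.84 and 5.95, a difference of 0.89 (SE 0.91). *Hist1h2ab* was at 0.55 and 3.1 against 0.27 and 1.64, and *Hist2h2ac* at 4.81 and 7.49 against 4.67 and 5.91. In all 4 the second Meis1-WT array stood more than 1 log2 unit above the first, and the second Meis1-KO array was the highest. *Hist1h2ak* was at 2.90 and 6.13 in Meis1-KO and 2.82 and 4.87 in Meis1-WT cells, a difference of 0.67 (SE 1.16), the largest SE of the 27 genes. Its Meis1-WT pools differed by 2.04 from each other, more than the genotypes did on either slide. *Hist3h2a*, which lies on chromosome 11, was at 2.82 and 4.93 against 2.96 and 3.43, a difference of 0.68. Its second, dimmer probe gave 0.36, at 1.42 and 1.75 against 1.68 and 0.77, and was thus lower on slide 2 in Meis1-WT cells. *Hist1h2ai* and *Hist2h2aa1* differed by 0.82 and 0.75.

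The spread between the control pools set the H2A genes beside the other types. The second Meis1-WT array minus the first had a median of 1.29 over the 8 tested H2A genes, against 0.46 for H1, 0.33 for H4, -0.08 for H3 and -0.03 for H2B genes. It exceeded 1 log2 unit for 7 genes, all of them H2A genes. Of the companion genes described below that lie outside the clusters, only H2afj (1.01), Sympk (1.17) and Fen1 (1.39) exceeded 1. Over all tested probes the median was 0.034, and over probes of other genes with at least 60% GC it was 0.45. The second Meis1-KO array minus the first had a median of 2.68 for H2A, 2.03 for H4, 1.66 for H1, 1.13 for H3 and 1.04 for H2B genes. In both genotypes the H2A genes thus had the largest and the H2B and H3 genes the smallest medians between slides. For 9 of the 27 genes the difference between genotypes was smaller in size than that between the 2 control pools. The share of all tested probes for which this held was not counted.

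**Figure D3:**
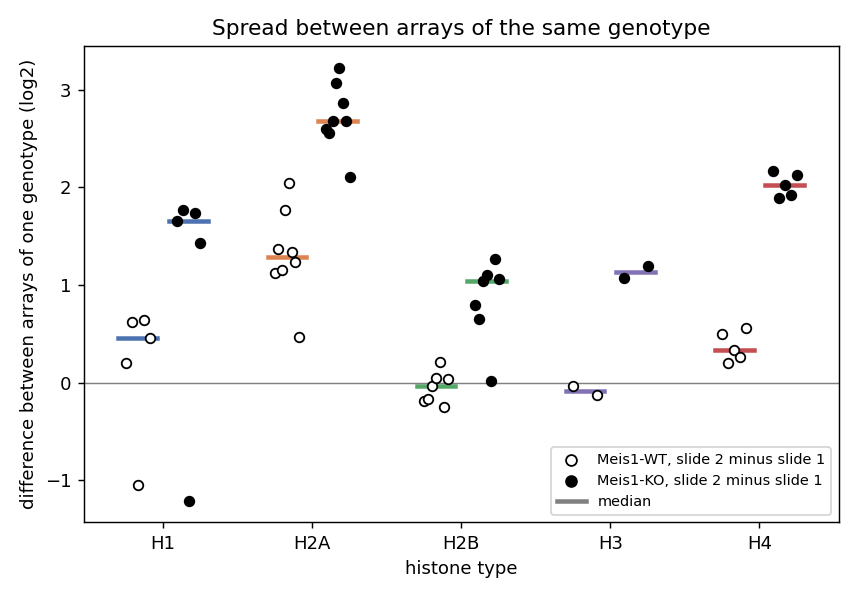
Difference between the arrays of the same genotype, slide 2 minus slide 1 (log2), for each tested gene by histone type, with open points for Meis1-WT, filled points for Meis1-KO and bars for the median. The H2A medians are 1.29 and 2.68 and the H2B medians -0.03 and 1.04.

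Among the H2B genes the control pools were close, and 5 of 7 genes had both Meis1-KO values above both Meis1-WT values, where 16.0% of all tested probes did. *Hist3h2bb* was at 3.93 and 5.0 in Meis1-KO and at 3.76 and 3.79 in Meis1-WT cells, a difference of 0.69 (SE 0.52). *Hist1h2bk* was at 5.33 and 6.37 against 5.19 and 5.15, a difference of 0.68 (SE 0.51). *Hist1h2bm* was at 4.87 and 5.97 against 4.73 and 4.78, a difference of 0.67 (SE 0.52). The probes of *Hist3h2bb* and *Hist1h2bm* and the second probe of *Hist1h2bk* share runs of 26 to 52 bases. *Hist1h2ba*, which encodes the testis H2B, was at 5.10 and 5.90 against 4.96 and 4.77, a difference of 0.64 (SE 0.48). In each of these 4 genes slide 1 differed by 0.14 to 0.17 and slide 2 by 1.13 to 1.22. *Hist3h2ba* was at -2.81 and -1.54 against -2.57 and -2.82, below its control on slide 1 and above it on slide 2. *Hist1h2bc* was at 1.20 and 1.85 against 1.39 and 1.23, a difference of 0.21 (SE 0.46), with slide differences of -0.20 and 0.62. *Hist2h2be* was at 3.45 and 3.47 against 3.15 and 3.36, a difference of 0.20 (SE 0.42), and was the 1 gene of the 26 higher ones that did not have the larger difference on slide 2, with 0.30 on slide 1 and 0.10 on slide 2.

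The 2 tested H3 genes gave near-identical profiles. *Hist1h3d* was at 5.59 and 6.66 in Meis1-KO and 5.54 and 5.51 in Meis1-WT cells, a difference of 0.60 (SE 0.52). *Hist2h3c1*, on chromosome 3, was at 5.26 and 6.45 against 5.29 and 5.16, a difference of 0.63 (SE 0.54). Both probes list several H3 genes in RefSeq (4 and 3). The second Meis1-KO array was the only one to leave the range of the other 3 by more than 1 log2 unit.

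The H4 genes, which encode 1 protein from many loci, had a median difference of 1.69 on slide 2 and 0.03 on slide 1. With quantile scaling their slide 2 median was 0.89, below the 0.95 of the H2A genes. *Hist1h4d* was at 6.88 and 8.77 in Meis1-KO and at 6.82 and 7.02 in Meis1-WT cells, a difference of 0.91 (SE 0.68), with slide differences of 0.06 and 1.75. *Hist1h4f* was at 6.95 and 8.98 against 6.95 and 7.28, a difference of 0.85 (SE 0.72). Hist2h4, on chromosome 3, was at 5.70 and 7.62 against 5.67 and 5.94, a difference of 0.86 (SE 0.69). In each, 3 arrays lay close together and the second Meis1-KO array stood above them. *Hist1h4a* was at 5.51 and 7.68 against 5.56 and 6.06, a difference of 0.78 (SE 0.76). Hist4h4, the 1 tested gene on chromosome 6, was at 2.44 and 4.56 against 2.38 and 2.95, a difference of 0.83 (SE 0.75). The probe of Hist2h4 shares runs of 29 bases with those of *Hist1h4d* and *Hist1h4f*, so these 3 values are not independent.

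Signal moved with the slide 2 difference across the array as a whole. Among tested probes outside the histone cluster genes, the median slide 2 difference was -0.25 below a mean log2 value of -2, 0.18 between 0 and 2, 0.41 between 2 and 4, 0.61 between 4 and 6, and 0.81 from 6 upward. The probes of histone cluster genes had medians of 1.21, 1.47, 1.28 and 1.69 in the last 4 of these classes (7, 5, 14 and 4 probes). The 90th percentile of the other probes in these classes was 1.04, 1.14, 1.27 and 1.26. From -2 to 0 the other probes had a median of 0.0056, and the 1 histone probe was at 1.26. Below -2 the 2 histone probes had a median of 1.61. After scaling, both the histone probes and bright probes in general were therefore higher on the second Meis1-KO array, the dimmest of the 4. Without scaling between arrays the slide 2 median was 0.52 over the 27 genes and -0.64 over all tested probes. Whether bright probes in general were higher there without scaling was not tested. The part of signal in the histone values was not tested beyond this. Quantile scaling, which gives every array the same distribution of values, left a median of 0.46 over the 27 genes against 0.03 over all tested probes, with slide medians of 0.12 and 0.86 over the 27 genes and 0.041 and 0.038 over all. On that scale 26 genes were higher, and 22 were higher on both slides where 29.6% of all tested probes were. By the GC content of the probe, the slide 2 median of the histone probes was 0.80 below 40% (4 probes), 1.12 from 40% to 50% (4 probes), 1.22 from 50% to 60% (12 probes) and 1.60 from 60% upward (13 probes). Other probes had 0.16, 0.12, 0.098 and 0.23 in these classes. The histone medians thus went up with GC content, and the part of GC content in the values was not tested.

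**Figure D4:**
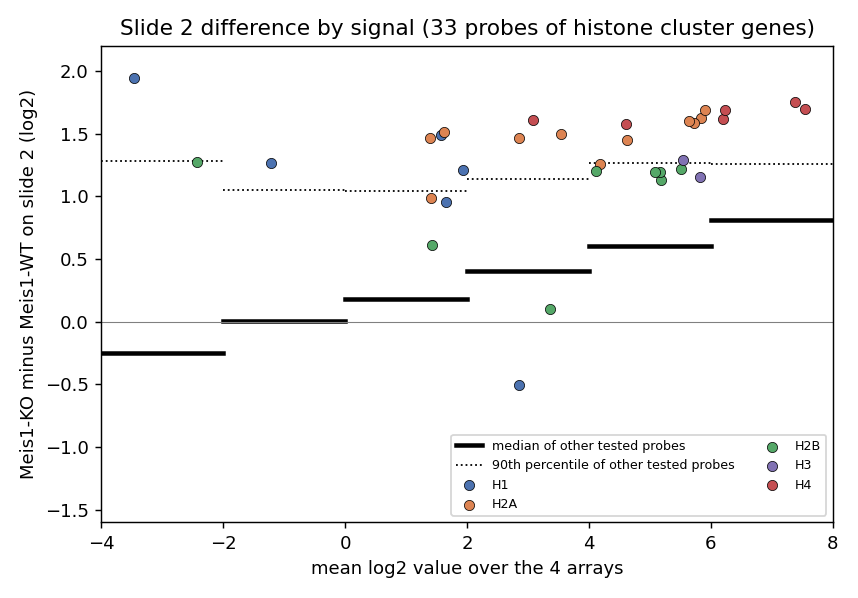
Meis1-KO minus Meis1-WT on slide 2 (log2) against the mean log2 value over the 4 arrays, for the 33 tested probes of histone cluster genes colored by type; solid and dotted lines are the median and the 90th percentile of the other tested probes in each class of mean value. The median of the other probes goes from -0.25 in the dimmest class to 0.81 in the brightest. Most histone probes lie above the dotted lines, but none of the H2B probes does.

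Genes that work with the clustered histones were read in the same way, and limma called none of them by the study's criteria. Of 12 tested replication-independent histone genes, which encode variants and other histones made outside the S phase program, 11 were higher, with a median of 0.41 (-0.10 without the second Meis1-KO array) and slide medians of 0.06 and 0.80. H2afj, an H2A variant gene, was at 4.87 and 7.35 in Meis1-KO and 4.72 and 5.73 in Meis1-WT cells, a difference of 0.89. Cenpa, the centromeric H3 variant, differed by 0.68, H1fx by 0.09 and H2afy3 by -0.09. In H2afj the second Meis1-KO array was the highest and the second Meis1-WT array the next. With quantile scaling the median of the 12 was 0.098, and 9 of them were higher. Leaving out the scaling between arrays lowers every difference by the same amount. It took the median of all tested probes from 0.08 to -0.30 and lowered the median of this list too.

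Of 10 tested genes for histone pre-mRNA processing and transcription 6 were higher, where 56.3% of all tested probes were. Their median was 0.29, with slide medians of 0.13 and 0.57. This median was -0.087 without scaling between arrays, 0.17 with quantile scaling, 0.14 after normexp, 0.059 without the second Meis1-KO array and 0.54 without the first. Slbp, which binds the stem-loop, was at 5.18 and 6.08 against 5.07 and 5.17, a difference of 0.51. Cstf2t, a relative of the cleavage stimulation factor CstF-64, differed by 0.66. Casp8ap2 (FLASH), which takes part in histone pre-mRNA processing, was at 1.65 and -0.61 against 1.49 and 1.26, a difference of -0.86, and the scaffold gene Sympk differed by -0.39. The members of this list thus lay on both sides of 0, with the second Meis1-KO array again the one that stood apart for Slbp and Casp8ap2.

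Of 21 histone chaperone and import genes 13 were higher, where 56.3% of all tested probes were. Their median was 0.13, with slide medians of 0.05 and 0.18. This median was -0.25 without scaling between arrays, 0.00097 with quantile scaling and 0.33 without the first Meis1-KO array. Hjurp, the chaperone of Cenpa, differed by 0.79 and Rbbp4, a subunit of the chromatin assembly factor CAF-1, by 0.64. Atrx, which deposits H3.3 together with Daxx, was at 1.13 and -2.43 against 1.25 and 0.74, a difference of -1.65. Ubn2, of the HIRA complex, and Supt16h, of FACT, each differed by -0.59.

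Of 26 tested S phase DNA replication genes 23 were higher, with a median of 0.33 (-0.049 without scaling between arrays, where the median of all tested probes was -0.30), and 19 were higher on both slides, where 30.3% of all tested probes were. Their slide medians were 0.19 and 0.49, against 0.060 and 1.29 for the histone cluster genes. With quantile scaling the S phase median was 0.091 and the slide medians were 0.26 and 0.045, so that slide 1 had the larger one, with 19 of the 26 higher and 14 higher on both slides (29.6% of all tested probes). Without the second Meis1-KO array the median was 0.063, and without the first it was 0.66. Ccne2, an activator of Cdk2, was at 1.54 and 2.36 against 0.96 and 1.28, a difference of 0.83, and Tyms, which makes thymidylate, at 3.43 and 3.97 against 2.94 and 2.84, a difference of 0.81. In both genes the 2 Meis1-KO values lay above both Meis1-WT values, as they did for 9 of the 26 and for 16.0% of all tested probes. The licensing gene Cdc6 and the repressor gene E2f8 differed by -0.33 and -0.29. The smallest unadjusted limma p in this list was 0.117 (adjusted p = 0.983). Whether the replication and histone genes differed from each other was not tested.

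**Figure D5:**
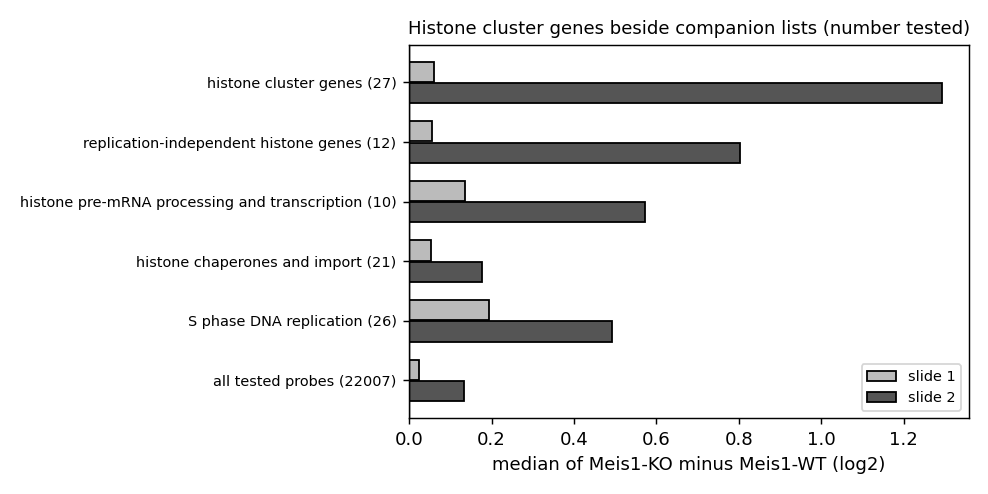
Median Meis1-KO minus Meis1-WT difference (log2) on slide 1 (light bars) and slide 2 (dark bars) for the histone cluster genes, the companion lists and all tested probes, with the number tested in parentheses. The histone cluster genes have the longest slide 2 bar, 1.29, and a slide 1 bar of 0.060.

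Markers of other cells did not all follow the histone values. The summed scaled signal of 6 erythroid markers was 98.3 and 246 in Meis1-KO and 85.9 and 23.6 in Meis1-WT cells, so that the sum was highest on the second Meis1-KO array. Most of it came from the hemoglobin gene Hbb-b1, at 6.55 and 7.93 against 6.30 and 4.46, while Hba-a1 was at 1.83 and -2.05 against 2.57 and -2.24. The second Meis1-KO array was the highest for 3 of the 6. Klf1 differed by -0.61 and Rhag, called higher by the criteria of the study, by 1.72 (limma adjusted p = 0.983), and all 6 markers were above background on the 4 arrays. The 4 plasma cell markers on the array summed to 4.91 and 24.9 against 25.6 and 13, with 3 above background on all arrays. The 7 B lineage markers summed to 11.7 and 8.30 against 18.1 and 7.45, with 2 above background on all arrays and Pax5 and Igll1 on none. The 6 T lineage markers summed to 0.34 to 0.79, with none above background on all arrays and Cd3e and Cd3g on none. The 5 granulocyte and monocyte markers summed to 124 and 84.6 against 99.6 and 49.8, mostly from Mpo. Of these 5 markers 3 were lower in Meis1-KO cells, among them Elane, called lower with a difference of -1.57 (limma adjusted p = 0.983). The part of these cells in the histone values was not tested.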

How the data were processed

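RNA of 2 Meis1-KO and 2 Meis1-WT pools of LSK cells was measured on 1-color arrays. The authors deposited spot intensity values from Feature Extraction 9.5.3.1 (9.1 in the submitters' processing notes), background-subtracted, with no scaling between arrays, and a series table that holds the same values rounded. Surrogate values stood for 25.2% to 33.2% of spots, and no spot was saturated. Control spots and outlier spots (54 to 97 per array) were left out, spots of a probe were averaged, and the 75th percentile of each array was subtracted on the log2 scale. The fit used limma 3.58.1 (lmFit, eBayes; R 4.3.3) with genotype as its term, and p-values were adjusted by Benjamini-Hochberg over 22007 probes. On simulated arrays with 200 probes changed by 3 (log2), the fit called 91% of them. The replicate number is the slide, as the files record, so it marks a shared batch. Deviations of same-numbered arrays correlated at 0.266. Fits with the slide as a block were run beside each result.

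Values were printed in full, within each type, for the 2 genes with the largest and the 2 with the smallest difference, the gene with the brightest probe and the testis genes, and for the companion lists the 2 largest and 2 smallest differences; other genes were named after their values were seen. The members and lists were chosen with earlier results of these data known. With 2 pools per genotype, p-values measure the spread between these pools, and the number of arrays limits the precision. Symbols are those of the array, and 31 of the 34 histone genes had a current symbol by RefSeq accession. Promoters are from RefSeq (GRCm38.p6), and the probe positions on mm9 were not converted. Alternatives were other scaling, background correction, filters, signal table, test and probe choice, and each array left out. Some marker genes are not reported here.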

Additional observations from a re-analysis of the deposited data

How the results depend on the processing

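The 27 tested histone cluster genes gave 0 calls in either direction under every alternative that kept all 4 arrays, also with the slide as a replicate block, which left their median at 0.69 and changed no call on them. Of the 20 tested genes taken by the naming rule, 18 kept their direction without scaling between arrays, and *Hist1h2bc* and *Hist2h2be* turned to -0.17 and -0.17. All kept it under the other alternatives with all 4 arrays. Without scaling the median was 0.31 for the 27 genes (0.26 for H1, 0.46 for H2A, 0.26 for H2B, 0.24 for H3 and 0.47 for H4) and -0.30 for all tested probes. Genes higher on both slides numbered 19, and 12 with median scaling (29.4% of all tested probes), 8 with normexp (41.3%) and 22 with quantile scaling (29.6%). The companion medians moved to -0.087 (processing), -0.25 (chaperones) and -0.049 (S phase) without scaling. With quantile scaling, with or without the block, they were 0.00097 (chaperones) and 0.091 (S phase), and with normexp 0.0096 (chaperones). With single arrays left out, where limma takes the spread of the lone array from the other genotype, calls ranged from 0 to 9. The 9 were called without the first Meis1-KO array, where 2.32% of all tested probes were called higher. Medians ranged from -0.16 to 1.59 for all 27 genes, from -0.16 to 1.52 for H1, from -0.45 to 2.19 for H2A, from 0.16 to 1.15 for H2B, from 0.049 to 1.18 for H3, from -0.16 to 1.86 for H4, from -0.10 to 0.70 for replication-independent histones, from 0.059 to 0.54 for processing, from 0.093 to 0.33 for chaperones and from 0.063 to 0.66 for S phase genes. Single genes ranged from -0.067 to 1.59 (*Hist1h1a*), -1.02 to 0.18 (*Hist1h1c*), -0.16 to 1.58 (*Hist1h1d*), -0.24 to 1.18 (*Hist1h1e*), -0.41 to 2.18 (*Hist1h2aa*), -0.42 to 2.26 (*Hist1h2af*), -0.95 to 2.28 (*Hist1h2ak*), -0.12 to 0.53 (*Hist1h2bc*), -0.30 to 1.87 (*Hist1h4a*), -0.040 to 1.85 (*Hist1h4d*), -0.16 to 1.86 (*Hist1h4f*), -0.10 to 1.82 (*Hist2h4*), -0.37 to 1.74 (*Hist3h2a*), -0.23 to 1.90 (*Hist4h4*), 0.24 to 1.04 (*Hist1h2ba*), 0.16 to 1.20 (*Hist1h2bk*), 0.16 to 1.22 (*Hist3h2bb*), 0.097 to 0.31 (*Hist2h2be*), 0.060 to 1.14 (*Hist1h3d*) and 0.038 to 1.23 (*Hist2h3c1*). For these genes other than *Hist1h1c* and *Hist2h2be*, the lowest value came without the second Meis1-KO array. The cause was not tested. Signal over background left 7 histone genes untested.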
